A study of Homo sapiens with 15 samples.

Results

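The 37 genes described here encode collagens and other proteins of the extracellular matrix. They were taken as a listed set of 19 collagen chains, 4 crosslinking enzymes of the lysyl oxidase family and 14 further matrix proteins, with each symbol matched to 1 Ensembl identifier among the 60721 in the table. Of the 37 genes, 34 passed the filter on low counts and were tested. The other 3 had 16 (COL3A1), 5 (LOXL4) and 2 (ELN) counts over all libraries together. Poly(A) RNA was sequenced from MCF-10A, an immortalized but non-tumorigenic human mammary epithelial line. There were 5 genotypes with 3 libraries each, called biological replicates in the labels: parental cells, cells with an empty vector, and 3 lines of NF1 mutant cells, edited with guide 1, with guide 2 or with both. The last 3 genotypes are called edited here (9 libraries) and the first 2 unedited (6 libraries). All cells were untreated and grew in the same DMEM/F12 medium with horse serum, EGF, hydrocortisone, cholera toxin and insulin. The labels do not say whether a genotype is a pool of cells or a clone, so differences between genotypes and between cell lines cannot be told apart.

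Cells secrete collagens and glycoproteins that assemble outside the cell into fibrils and sheets. Fibrillar collagens such as type I give connective tissue its strength, while type IV collagen, perlecan, nidogen and laminins form the basement membrane on which epithelial cells rest. Lysyl oxidases crosslink collagen and elastin, and adhesive and matricellular proteins such as fibronectin, tenascin-C, periostin and thrombospondins link the network to receptors on the cell surface. Basal mammary epithelial cells are known for making basement membrane and for anchoring to it through hemidesmosomes, which contain collagen XVII.

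Library totals ranged from 46129559 to 78976917 counts (median 55942785), so that 3 counts, taken as the floor of detection, correspond to 0.038 to 0.065 CPM (counts per 1000000 counts of the library). Floors cover counting error only. NF1 RNA, the target of the guides, had 26.0 to 51.3 CPM in the 9 edited libraries and 115.3 to 158.7 CPM in the 6 unedited ones, without overlap. Guide 2 replicate 2 stood apart: its log CPM correlated with those of its 2 group mates at 0.947 across genes, against 0.979 to 0.995 for the other replicate pairs. The 10 epithelial markers summed to 10134 CPM in that library and to 1279 to 6422 CPM elsewhere. KRT8, 1 of the 10, went the other way, with 70.2 CPM in that library and 105 to 176 CPM elsewhere. The 9 mesenchymal markers summed to 1112 CPM in guide 2 replicate 2 and to 1789 to 2680 CPM elsewhere, with VIM (866 CPM in that library) most of the sum. SNAI2 went the other way, with its highest value, 161 CPM, in that library. Against the empty vector edgeR called SNAI1 lower in guide 1, guide 2, both-guide and parental cells (log2 fold changes -1.83, -1.82, -1.15 and -1.28). These calls held in 15, 15, 10 and 15 of 15 fits without 1 library. The 9 fibroblast markers summed to 507 to 1177 CPM in guide 1, 101 to 460 CPM in guide 2, 290 to 318 CPM in both-guide, 210 to 231 CPM in empty-vector and 152 to 209 CPM in parental cells. Of these, DCN (55.4 to 1095 CPM), FAP (up to 112 CPM) and ACTA2 (9.09 to 29.4 CPM) were present in every library, while PDGFRA had at most 0.152 CPM and THY1 at most 0.0746 CPM. Against the empty vector in guide 1 cells, edgeR called DCN (2.87) and LUM (2.49) higher and FAP lower (-0.84). These calls held in 13, 12 and 12 of 15 fits without 1 library. FAP was also called lower in guide 2 (-1.26, held in 15 of 15 fits) and both-guide cells (-0.99, held in 9). The 6 endothelial markers summed to 3.00 to 13.3 CPM. Of these, CDH5 and CLDN5 did not exceed 0.0191 CPM, while KDR had at least 1.72 CPM in every library. KDR was higher in guide 1 than in empty-vector cells (1.86, edgeR adjusted p 0.0352, held in 7 of 15 fits without 1 library). TEK, at 0.238 to 0.903 CPM, went the other way. It was lower than in the empty vector in guide 2 (-1.12, edgeR adjusted p 0.0200, held in 12 of 15 fits) and parental cells (-1.46, 0.00800, held in 15). The 6 leukocyte markers summed to 3.29 to 7.01 CPM, with CD14 at 3.24 to 6.95 CPM and CD3E at 0. The part of these markers in the matrix differences was not tested. In bulk RNA, a smaller share of cells that make a transcript and less of it per cell cannot be told apart.

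Levels differed by orders of magnitude between the matrix genes. Per kilobase of exon, TGFBI (746 CPM per kb, mean of 15 libraries), FN1 (642 CPM per kb) and THBS1 (453 CPM per kb) were far above the rest, and FBLN1 was next at 65.4 CPM per kb. FN1 alone took 0.282% to 1.85% of all counts in a library. The type IV chains COL4A2 and COL4A1 had 23.8 and 17.7 CPM per kb. The type I chains had 0.812 (COL1A1) and 0.0171 (COL1A2) CPM per kb, and elastin 0.000416 CPM per kb. The other adhesive and matricellular genes ranked lower, with SPARC at 29.6, VCAN at 15.8, POSTN at 5.65 and TNC at 2.55 CPM per kb.

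**Figure D1:**
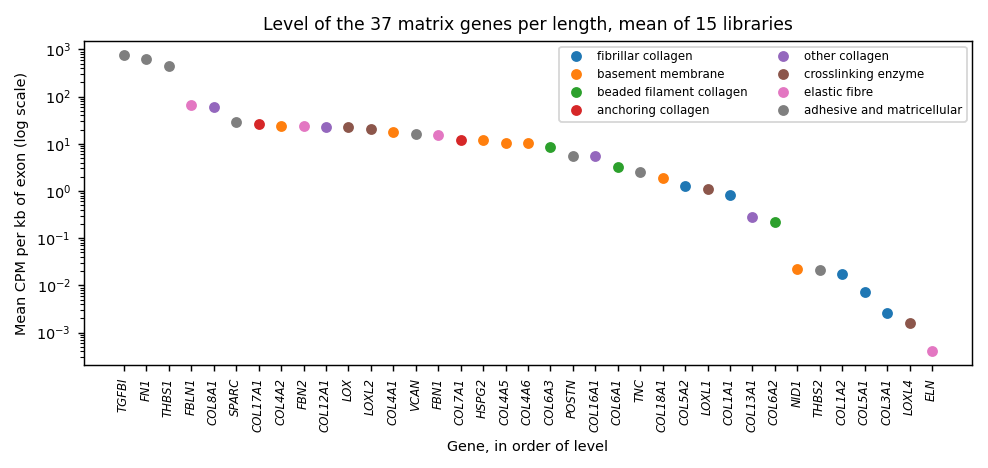
Mean level of the 37 genes in CPM per kilobase of exon (log axis), each point the mean of 15 libraries, ordered from high to low and coloured by role. TGFBI, FN1 and THBS1 lie above 400 CPM per kb, and COL1A2, COL5A1, COL3A1, LOXL4 and ELN lie below 0.02.

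The edited lines were compared with each control to ask which matrix genes differ when NF1 is mutated, and the controls with each other to measure how far unedited cells differ. Genes were called by edgeR at an adjusted p under 0.05, and fold changes are edgeR log2 fold changes with their standard errors (SE). The p-values measure the spread between these libraries only. Of the 34 tested genes, 8 were called in at least 1 of 8 comparisons against a control and 26 in none, where 9.47% of all tested genes were called in at least 1 of the 8. The 8 were COL1A1, COL1A2, COL4A1, COL6A2, COL17A1, TNC, POSTN and TGFBI.

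Against the empty vector, 4 of 34 matrix genes were lower in guide 1 cells and none was higher, where 4.57% of all tested genes were called lower and 1.31% higher. In guide 2 cells 4 were lower and none was higher, against 2.73% and 1.2% of all genes. In cells with both guides 1 was higher and 1 lower, against 0.269% and 0.693% of all genes. Parental cells had 2 genes higher and none lower than the empty vector, against 1.53% and 2.84% of all genes. These comparisons share the empty-vector libraries. The median log2 fold change of the 34 genes was 0.07, -0.20, -0.19 and -0.12 in these 4 comparisons, and that of all tested genes was 0.02, 0.03, 0.00 and 0.01.

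Against parental cells, 2 matrix genes were lower and none higher in guide 1 cells (0.0745% of all genes in each direction). In cells with both guides 1 was higher and 2 were lower (0.109% and 0.0859% of all genes). For guide 2 against parental cells edgeR called none (0.0516% of all genes). Unadjusted, 7 matrix genes had an edgeR p under 0.05, as did 1287 of all 17457 tested genes. In the same comparison DESeq2 called 3 (0.785% of all genes) and limma voom with sample quality weights 16 (32.5% of all genes). With the edited lines averaged against the average of both controls, 1 gene was higher and 4 were lower (0.321% and 1.19% of all genes). Directly between edited lines, COL6A2 was the matrix gene called, higher in both-guide than in guide 1 cells (0.189% of all genes were higher) and than in guide 2 cells (0.103%). Guide 1 and guide 2 cells differed in none of the 34 by edgeR (0.0401% of all genes), 1 by DESeq2 (1.17%) and 9 by voom (20.2%). Unadjusted, 6 of the 34 had an edgeR p under 0.05, as did 2648 of all 17457 tested genes.

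**Figure D2:**
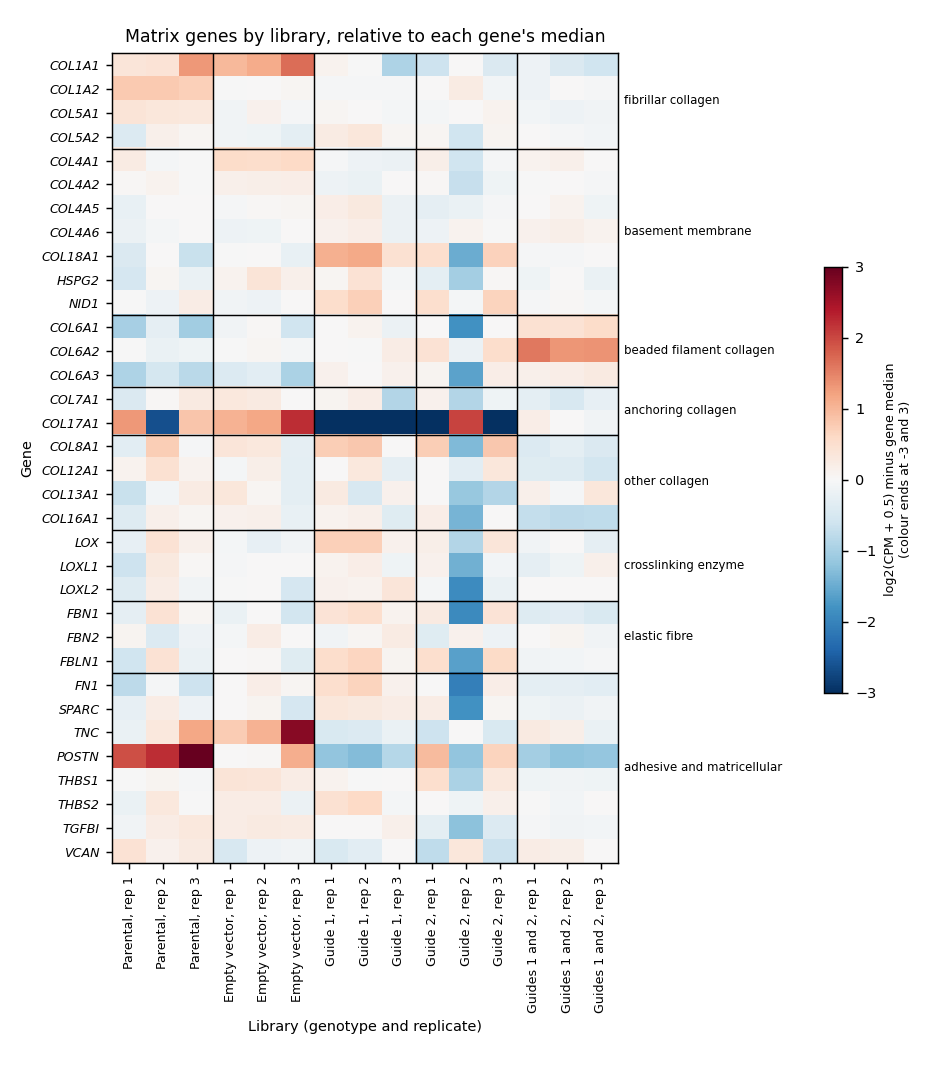
Level of the 34 tested genes in each of 15 libraries, as log2(CPM + 0.5) minus the median of the gene over the libraries (colour, ending at -3 and 3), with rows grouped by role and columns by genotype. COL17A1 reaches the lower end of the scale in guide 1 cells and in guide 2 replicates 1 and 3, and the column of guide 2 replicate 2 is blue in most rows.

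Upstream sequence is shown for 5 of the 8 called genes, because these genes carry the differences described below. Each run covers bases -250 to -101 before the RefSeq start (GRCh38.p14, 5′ to 3′ on the strand of the gene), where GENCODE release 29 has no exon. COL1A1, COL1A2 and COL4A1 are not shown. POSTN is at chr13:37598869-37599018 (minus strand), TNC at chr9:115118258-115118407 (minus), COL17A1 at chr10:104085981-104086130 (minus), COL6A2 at chr21:46097862-46098011 (plus) and TGFBI at chr5:136028738-136028887 (plus). Capitals mark matches to any of 5 motifs searched on both strands: the AP-1 motif TGANTCA, the E-box CAGGTG, the GC box GGGCGG, the motif CCAAT, and the TATA motif TATAAA.
POSTN: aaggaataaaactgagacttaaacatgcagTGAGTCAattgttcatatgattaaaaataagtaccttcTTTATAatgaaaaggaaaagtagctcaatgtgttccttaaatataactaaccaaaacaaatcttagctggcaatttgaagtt
TNC: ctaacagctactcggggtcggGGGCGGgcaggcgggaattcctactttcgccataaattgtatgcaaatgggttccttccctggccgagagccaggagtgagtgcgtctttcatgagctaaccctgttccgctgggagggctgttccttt
COL17A1: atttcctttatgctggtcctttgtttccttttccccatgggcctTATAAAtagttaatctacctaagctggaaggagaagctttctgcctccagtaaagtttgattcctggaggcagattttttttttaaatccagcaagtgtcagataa
COL6A2: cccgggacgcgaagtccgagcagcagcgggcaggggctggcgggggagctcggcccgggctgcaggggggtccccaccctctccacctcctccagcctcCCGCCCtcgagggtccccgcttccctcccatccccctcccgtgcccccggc
TGFBI: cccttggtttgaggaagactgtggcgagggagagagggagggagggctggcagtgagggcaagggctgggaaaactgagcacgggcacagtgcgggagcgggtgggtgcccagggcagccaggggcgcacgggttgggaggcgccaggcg
The POSTN run holds an AP-1-like TGAGTCA and a TATAAA on the opposite strand, and the COL17A1 run holds TATAAA. Matches to TGANTCA are found in 3.77% and to TATAAA in 6.33% of the 34773 distinct windows of this length. GGGCGG or its complement occurs in the TNC and COL6A2 runs and in 25.8% of all windows. The E-box CAGGTG (11.6% of windows) and CCAAT (18.9%) have no match in these 5 runs, and TGFBI has no match to any motif. GC content was 28.7% in POSTN and 38.7% in COL17A1, and 56.7%, 70.0% and 78.7% in TNC, TGFBI and COL6A2, with a median of 56.0% over all windows. Such matches describe the letters only.

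Among fibrillar collagens, COL1A1 was lower in all 3 edited lines than in the empty vector. COL1A1 (ENSG00000108821, chromosome 17, 50183289 to 50201632, minus strand) encodes the alpha1 chain of type I collagen. It had 12.3, 13.6 and 20.0 CPM in empty-vector replicates 1 to 3 and 7.77, 8.10 and 15.3 CPM in parental cells. Guide 1 cells had 6.41, 5.90 and 2.88 CPM, guide 2 cells 3.69, 5.96 and 4.29 CPM, and cells with both guides 5.31, 4.28 and 3.75 CPM. Every edited library lay below every unedited one, the highest edited value being 6.41 and the lowest unedited 7.77 CPM. Group means were 15.3 ± 4.16 CPM in empty-vector, 10.4 ± 4.27 in parental, 5.06 ± 1.91 in guide 1, 4.65 ± 1.18 in guide 2 and 4.45 ± 0.792 in both-guide cells (SD, n = 3 each).

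COL1A1 fell by 1.61 (SE 0.341, edgeR adjusted p 0.0183), 1.74 (SE 0.343, 0.0166) and 1.81 (SE 0.344, 0.0293) on the log2 scale against the empty vector in guide 1, guide 2 and both-guide cells, or 3.04-, 3.33- and 3.50-fold. Against parental cells the log2 fold changes were -1.01, -1.14 and -1.21, and none passed the threshold (edgeR adjusted p 0.186, 0.378 and 0.176). The controls did not differ from each other at the threshold (-0.59, adjusted p 0.354). Edited against unedited cells gave -1.42 (SE 0.213, edgeR adjusted p 0.00881), and the call held in each of the 15 fits that left out 1 library. The 3 calls against the empty vector were lost without empty-vector replicate 3 (adjusted p 0.0918, 0.0769 and 0.148). They were also lost without guide 1 replicate 2 (0.0617), guide 2 replicates 1 and 3 (0.0625 and 0.0578), and any both-guide library or empty-vector replicate 2 (0.0641 to 0.153) in the comparison that uses it.

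COL1A2 was highest in parental cells and low in the empty vector and the edited lines alike. COL1A2 (ENSG00000164692, chromosome 7, 94394561 to 94431232, plus strand) encodes the alpha2 chain that joins alpha1 in type I collagen, and it had only 162 counts in all. Its level was 0.544, 0.548 and 0.498 CPM in parental replicates 1 to 3 and 0.105, 0.111 and 0.131 CPM in empty-vector cells. In edited cells it ranged from 0.0434 to 0.217 CPM, so parental cells were above every other library and the empty vector was inside the edited range. COL1A2 was higher in parental than in empty-vector cells by 2.15 (SE 0.367, edgeR adjusted p 0.00888, called in all 15 fits without 1 library). Against parental cells it fell by 2.47 in guide 1 (SE 0.370, edgeR adjusted p 0.0227) and by 2.66 in both-guide cells (SE 0.386, 0.0125). In guide 2 cells the value was -1.99 (adjusted p 0.0969).

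The call of COL1A2 in edited against unedited cells (-1.30, SE 0.254, edgeR adjusted p 0.0285) was lost in 11 of 15 fits without 1 library, up to 0.0973 without empty-vector replicate 3; it held without guide 1 replicate 3, guide 2 replicate 2 or 3, or both-guide replicate 2. Against parental cells the guide 1 call was lost without guide 1 replicate 1 or 2, both-guide replicate 3, empty-vector replicate 1, or parental replicate 2 or 3 (0.0517 to 0.169), and the both-guide call without any both-guide library or parental replicate 2 (0.0547 to 0.0938). COL5A1 and COL5A2, chains of the type V collagen that nucleates fibrils, were not called. COL5A1 had 0.228, 0.204 and 0.195 CPM in parental replicates 1 to 3, above the 0 to 0.111 CPM of all other libraries (-3.82 in both-guide against parental cells, edgeR adjusted p 0.0623), and COL5A2 had 6.18 to 12.3 CPM over all libraries. COL3A1, the chain of type III collagen, did not exceed 0.0553 CPM in any library.

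In the basement membrane group, COL4A1 was the gene called, lower in guide 1 and guide 2 cells than in the empty vector but not than in parental cells. COL4A1 (ENSG00000187498, chromosome 13, 110148963 to 110307233, minus strand) encodes the alpha1 chain of type IV collagen, the sheet-forming collagen of basement membranes. It had 353, 346 and 367 CPM in empty-vector replicates 1 to 3 and 287, 233 and 239 CPM in parental cells. It had 236, 217 and 212 CPM in guide 1, 272, 158 and 233 CPM in guide 2, and 260, 267 and 241 CPM in both-guide cells. The 3 empty-vector libraries were the highest of the 15, and the parental range overlapped that of the edited lines. COL4A1 fell by 0.69 (SE 0.157, edgeR adjusted p 0.0234) in guide 1 and by 0.70 (SE 0.157, 0.0278) in guide 2 cells against the empty vector, with -0.50 (adjusted p 0.157) in both-guide and -0.52 (0.0790) in parental cells. Against parental cells the 3 lines had -0.17, -0.17 and 0.02. The guide 1 call was lost without any guide 1 library or without empty-vector replicate 1 or 3 (adjusted p 0.0517 to 0.0958), and the guide 2 call without guide 2 replicate 3 or any empty-vector library (0.0586 to 0.106).

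The partner chain COL4A2 starts 127 bases away on the opposite strand (starts at 110307157 for COL4A1 and 110307284 for COL4A2). The annotated spans overlap there, and whether counting used strand is not given in the sources used here. COL4A2 had 516 to 539 CPM in empty-vector, 465 to 501 CPM in parental and 288 to 475 CPM in edited cells, and its log2 fold changes against the empty vector of -0.30, -0.42, -0.21 and -0.17 (guide 1, guide 2, both guides and parental) did not pass the threshold. COL4A5 (105 to 156 CPM) and COL4A6 (86.4 to 112 CPM) were nearly level across genotypes and were not called. These type IV chains start 380 or 1416 bases apart on the X chromosome, depending on the listed COL4A6 start. HSPG2, the perlecan core protein, ranged from 109 to 298 CPM. NID1, nidogen 1, which bridges laminin and type IV collagen, had 0.306, 0.405 and 0.0633 CPM in guide 1 and 0.289, 0.0362 and 0.390 CPM in guide 2 cells, and at most 0.152 CPM elsewhere, without a call. COL18A1, the precursor of endostatin, had 30.0, 31.7 and 19.6 CPM in guide 1 and 20.3, 4.64 and 23.0 CPM in guide 2 cells. It had at most 14.1 CPM in empty-vector, 8.68 to 14.2 CPM in parental and 13.7 to 14.0 CPM in both-guide cells. Guide 1 and empty-vector libraries did not overlap, but the log2 fold change of 1.01 did not pass (edgeR adjusted p 0.177; 0.00252 without guide 2 replicate 2).

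Collagen VI forms beaded filaments beside the basement membrane, and COL6A2 encodes its alpha2 chain. COL6A2 (ENSG00000142173, chromosome 21, 46098097 to 46132849, plus strand) was higher in cells with both guides than in any other genotype. It had 3.10, 2.55 and 2.56 CPM in both-guide replicates 1 to 3. It had 0.702, 0.548 and 0.606 CPM in parental, 0.700, 0.756 and 0.653 CPM in empty-vector, 0.708, 0.696 and 0.918 CPM in guide 1, and 1.12, 0.562 and 1.24 CPM in guide 2 cells. The both-guide libraries did not overlap with the other 12, although the gene had only 977 counts in all.

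The log2 fold change of COL6A2 in both-guide cells was 1.93 against the empty vector (SE 0.263, edgeR adjusted p 0.00566) and 2.15 against parental cells (SE 0.266, 0.00910), and both calls held in all 15 fits without 1 library. Against guide 1 cells it was 1.81 (SE 0.260, edgeR adjusted p 0.0145) and against guide 2 cells 1.47 (SE 0.257, 0.0493). The first was lost without guide 1 replicate 1 or 2 or any both-guide library (0.0611 to 0.105). The second was lost in 12 of 15 fits, in all but those without guide 1 replicate 3, guide 2 replicate 2 or parental replicate 1 (up to 0.257). Edited against unedited cells gave 0.95 (SE 0.174, edgeR adjusted p 0.0211), lost without both-guide replicate 1, empty-vector replicate 1 or 3, or parental replicate 3 (0.0542 to 0.0736). In guide 1 and guide 2 cells alone the values against the empty vector were 0.13 and 0.46 (adjusted p 0.826 and 0.372).

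The other chains of collagen VI had higher levels per kilobase (8.63 CPM per kb for COL6A3, 3.16 for COL6A1 and 0.216 for COL6A2) and were not called. COL6A1 had 25.2, 24.8 and 27.0 CPM in both-guide cells, above the 12 other libraries (4.84 to 19.6 CPM), with log2 fold changes of 0.67 against the empty vector and 1.24 against parental cells (edgeR adjusted p 0.479 and 0.237). COL6A3 had 218 to 236 CPM in both-guide, 195 to 213 CPM in guide 1 cells, and 100 to 156 CPM in the 6 unedited libraries. In guide 2 cells it had 206, 63.7 and 222 CPM. Without guide 2 replicate 2, COL6A3 was higher than in the empty vector by 0.60, 0.64 and 0.72 in guide 1, guide 2 and both-guide cells (edgeR adjusted p 0.00739, 0.0112 and 0.00835).

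**Figure D3:**
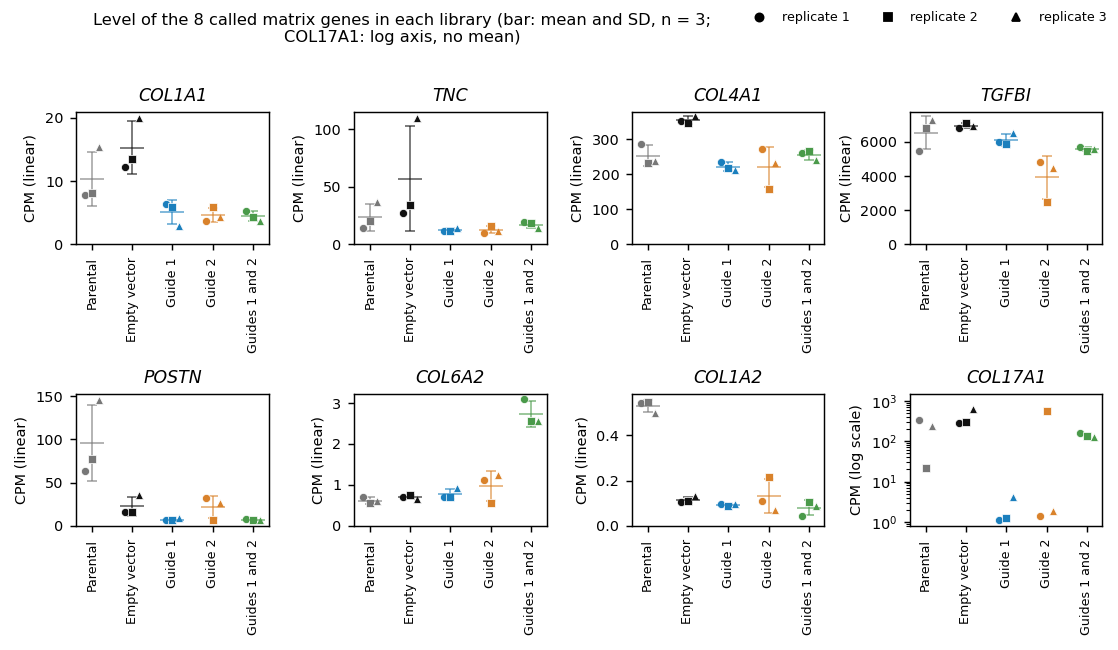
CPM of the 8 called genes in each library by genotype, with a point shape for each replicate. Axes are linear with the mean and SD (n = 3) as bars, except for COL17A1, which has a log axis and no mean. Edited libraries lie below unedited ones for COL1A1, and both-guide libraries lie above the rest for COL6A2.

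COL17A1 ranged from 1.13 to 630 CPM across the libraries and was called lower in guide 1 cells. It (ENSG00000065618, chromosome 10, 104031286 to 104085957, minus strand) encodes collagen XVII, a transmembrane collagen of hemidesmosomes. It had 279, 303 and 630 CPM in empty-vector replicates 1 to 3 and 337, 21.3 and 244 CPM in parental cells. Guide 1 cells had 1.13, 1.25 and 4.05 CPM. Guide 2 cells had 1.39, 553 and 1.86 CPM, so replicate 2 was inside the empty-vector range and its 2 mates inside the guide 1 range. Cells with both guides had 156, 136 and 126 CPM, below every empty-vector library and inside the parental range.

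Guide 1 cells differed from the empty vector in COL17A1 by -7.58 (SE 2.00, edgeR adjusted p 0.0446; 0.0880 when replicate numbers were blocked). This call was lost in 11 of 15 fits without 1 library, in all but those without a guide 2 library or parental replicate 2 (adjusted p up to 0.174 without guide 1 replicate 2). Without guide 2 replicate 2 it was -7.59 (adjusted p 0.000195), guide 2 against the empty vector was -7.98 (0.000790), and edited against unedited cells -5.18 (9.61e-05). With that library the last 2 values were -1.16 and -2.91 and did not pass (edgeR adjusted p 0.735 and 0.164).

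The summed epithelial markers were also low in the libraries with little COL17A1, with KRT5 a large part of the sum (4997 CPM in guide 2 replicate 2). KRT8 went the other way in guide 2 cells, with 159, 70.2 and 167 CPM in replicates 1 to 3. It had its highest value, 176 CPM, in parental replicate 2. The 10 markers summed to 1279 to 1601 CPM in guide 1 cells and to 1393 and 1479 CPM in guide 2 replicates 1 and 3. They summed to 5789, 1731 and 3497 CPM in parental replicates 1 to 3, 4134 to 6422 CPM with the empty vector, 2138 to 2449 CPM with both guides, and 10134 CPM in guide 2 replicate 2. By edgeR 4 of the 10 fell in guide 1 cells against the empty vector (4.57% of all genes did), with CDH1 at -9.27, KRT17 at -4.89, DSP at -2.47 and KRT18 at -0.52. Their calls held in 4, 5, 4 and 12 of 15 fits without 1 library, and with replicate numbers blocked the edgeR adjusted p of the first 3 was 0.0874, 0.0655 and 0.0883. Their part in the COL17A1 result was not tested. COL7A1, which encodes the anchoring fibril collagen beneath the same junctions, had 78.0 to 180 CPM and was not called in any of the 11 comparisons.

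**Figure D4:**
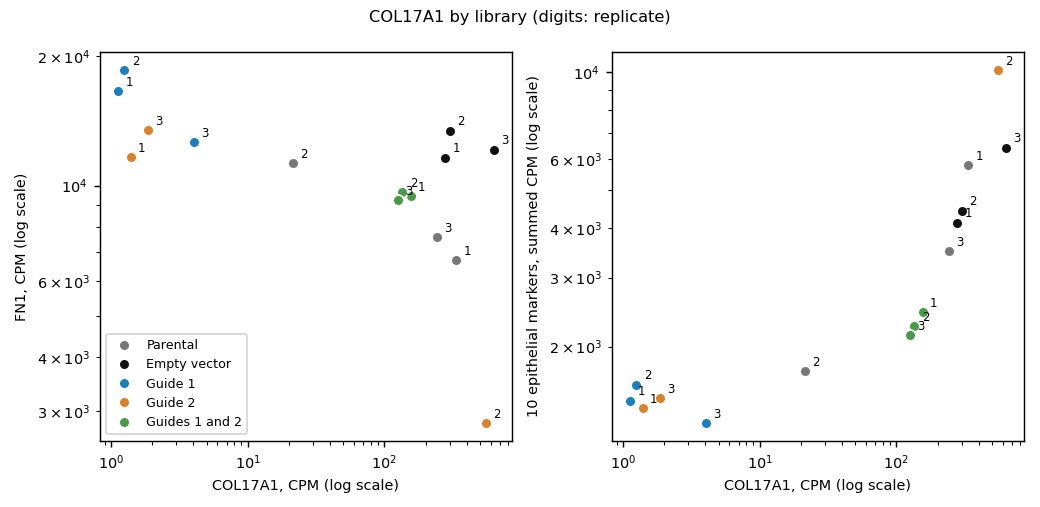
COL17A1 in CPM (log axis) in each of 15 libraries, against FN1 in CPM (left, log axis) and the summed CPM of 10 epithelial markers (right, log axis), with digits for replicates and colours for genotypes. Guide 2 replicate 2 lies at 553 CPM, apart from its mates at 1.39 and 1.86, and has the lowest FN1 and the highest marker sum.

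Of the other collagens, COL8A1 (196 to 864 CPM), COL12A1 (193 to 388 CPM), COL13A1 (0.544 to 2.41 CPM) and COL16A1 (21.6 to 66.1 CPM) were not called. COL16A1, a fibril-associated collagen, had 34.4, 33.0 and 33.4 CPM in both-guide cells, below the 49.1 to 64.1 CPM of the empty vector. COL8A1, a short-chain collagen of vessel walls and the cornea, had 363 to 406 CPM in both-guide cells, below the 408 to 641 CPM of the empty vector. Neither difference passed the threshold.

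The crosslinking enzymes LOX (62.4 to 191 CPM), LOXL1 (1.27 to 5.37 CPM) and LOXL2 (32.8 to 158 CPM) and the elastic fibre proteins FBN1 (66.5 to 359 CPM), FBN2 (239 to 377 CPM) and FBLN1 (146 to 709 CPM) were not called either. LOX, the amine oxidase that starts collagen and elastin crosslinks, had its highest values in guide 1 replicates 1 and 2 at 191 and 190 CPM, with 127 CPM in replicate 3 (log2 fold change against the empty vector 0.67, edgeR adjusted p 0.164). Both fibrillins were detected in every library, while elastin, the core of elastic fibres, had 2 counts in all libraries together.

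Among the adhesive and matricellular proteins TNC was lower in single-guide cells than in the empty vector. TNC (ENSG00000041982, chromosome 9, 115019578 to 115118257, minus strand) encodes tenascin-C, a large glycoprotein of remodelling tissue. It had 27.6, 33.8 and 110 CPM in empty-vector replicates 1 to 3 and 13.9, 20.3 and 36.6 CPM in parental cells. It had 11.5, 12.1 and 14.0 CPM in guide 1, 10.3, 16.1 and 11.6 CPM in guide 2, and 19.5, 18.2 and 14.0 CPM in both-guide cells. All edited libraries lay below the empty vector and, except for parental replicate 1, below the parental cells, and empty-vector replicate 3 was far above its mates.

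TNC fell by 2.21 (SE 0.473, edgeR adjusted p 0.0191) in guide 1 and by 2.20 (SE 0.473, 0.0239) in guide 2 cells against the empty vector, with -1.76 (adjusted p 0.0956) in both-guide cells. Without empty-vector replicate 3 these values were -1.30 (0.0767) and -1.29 (0.0849), and the calls were also lost without guide 1 replicate 1 or 2 and guide 2 replicate 1 or 3 (0.0754 to 0.0865). Parental cells had -1.32 against the empty vector (adjusted p 0.126), and the edited lines -0.89, -0.88 and -0.44 against parental cells (0.285, 0.744 and 0.808). Edited against unedited cells gave -1.40 (SE 0.290, edgeR adjusted p 0.0339), lost in 9 of 15 fits without 1 library. Those were the fits without any both-guide library, guide 1 replicate 1 or 2, guide 2 replicate 1 or 3, or replicate 3 of either control (-0.95, 0.0653 without that of the empty vector, and up to 0.117 without that of parental cells).

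POSTN was highest in parental cells. POSTN (ENSG00000133110, chromosome 13, 37562583 to 37598844, minus strand) encodes periostin, a collagen-binding matricellular protein. It had 63.1, 77.8 and 146 CPM in parental replicates 1 to 3 and 16.3, 16.6 and 35.4 CPM in empty-vector cells. It had 6.93, 6.27 and 8.78 CPM in guide 1, 31.8, 6.94 and 26.1 CPM in guide 2, and 7.74, 6.77 and 6.99 CPM in both-guide cells. Guide 1 and both-guide libraries were below all unedited ones, while guide 2 replicates 1 and 3 were inside the empty-vector range.

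POSTN was higher in parental than in empty-vector cells by 2.03 (SE 0.486, edgeR adjusted p 0.0348), a 4.08-fold difference between unedited lines. Against parental cells it fell by 3.68 in guide 1 (SE 0.522, edgeR adjusted p 0.0171) and fell by 3.73 in both-guide cells (SE 0.524, 0.0109), with -2.12 in guide 2 cells (adjusted p 0.223). Against the empty vector the values of -1.65, -0.09 and -1.70 in guide 1, guide 2 and both-guide cells did not pass (edgeR adjusted p 0.0648, 0.945 and 0.122). Edited against unedited cells gave -2.16 (SE 0.303, edgeR adjusted p 0.00657) and held in all 15 fits without 1 library. The difference between controls was lost in 9 of 15, in all but those without a guide 2 library, guide 1 replicate 2 or 3, or parental replicate 1 (up to 0.137). The guide 1 call was lost without guide 1 replicate 1 or 2 or parental replicate 3 (0.0623 to 0.150), and the both-guide call without any both-guide library (0.0740 to 0.0938).

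TGFBI, the matrix gene with the highest level per kilobase, was lower in guide 2 cells than in the empty vector. TGFBI (ENSG00000120708, chromosome 5, 136028895 to 136063818, plus strand) encodes an adhesive protein induced by TGF-beta. It had 6841, 7088 and 6948 CPM in empty-vector replicates 1 to 3, 5471, 6842 and 7299 CPM in parental cells, and 4829, 2495 and 4451 CPM in guide 2 cells. Guide 1 and both-guide cells had 5885 to 6529 and 5470 to 5703 CPM, so guide 2 libraries were the lowest 3 of the 15. TGFBI fell by 0.84 in guide 2 cells against the empty vector (SE 0.192, edgeR adjusted p 0.0292), with -0.71 against parental cells (adjusted p 0.321). The value without guide 2 replicate 2 was -0.62 (edgeR adjusted p 0.00206), and the call was lost without guide 2 replicate 3 or any empty-vector library (0.0538 to 0.102).

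FN1, encoding fibronectin, had no call in spite of large differences between libraries. It had 16553, 18543 and 12621 CPM in guide 1 replicates 1 to 3 and 6718, 11254 and 7597 CPM in parental cells, which do not overlap. It had 11608 to 13397 CPM in empty-vector and 9263 to 9645 CPM in both-guide cells, and 11621, 2818 and 13426 CPM in guide 2 cells. The log2 fold change of guide 1 against parental cells was 0.92 (edgeR adjusted p 0.236; 0.00739 without guide 2 replicate 2). THBS1, an adhesive protein that activates latent TGF-beta, had 2051 to 5618 CPM, and its relative THBS2 at most 0.393 CPM, reached in guide 1 replicate 2. SPARC, a collagen-binding protein (41.7 to 188 CPM), and VCAN, the proteoglycan versican (142 to 328 CPM), were not called. FN1, COL6A1, COL6A3, COL8A1, COL16A1 and LOX were singled out after their values were seen.

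**Figure D5:**
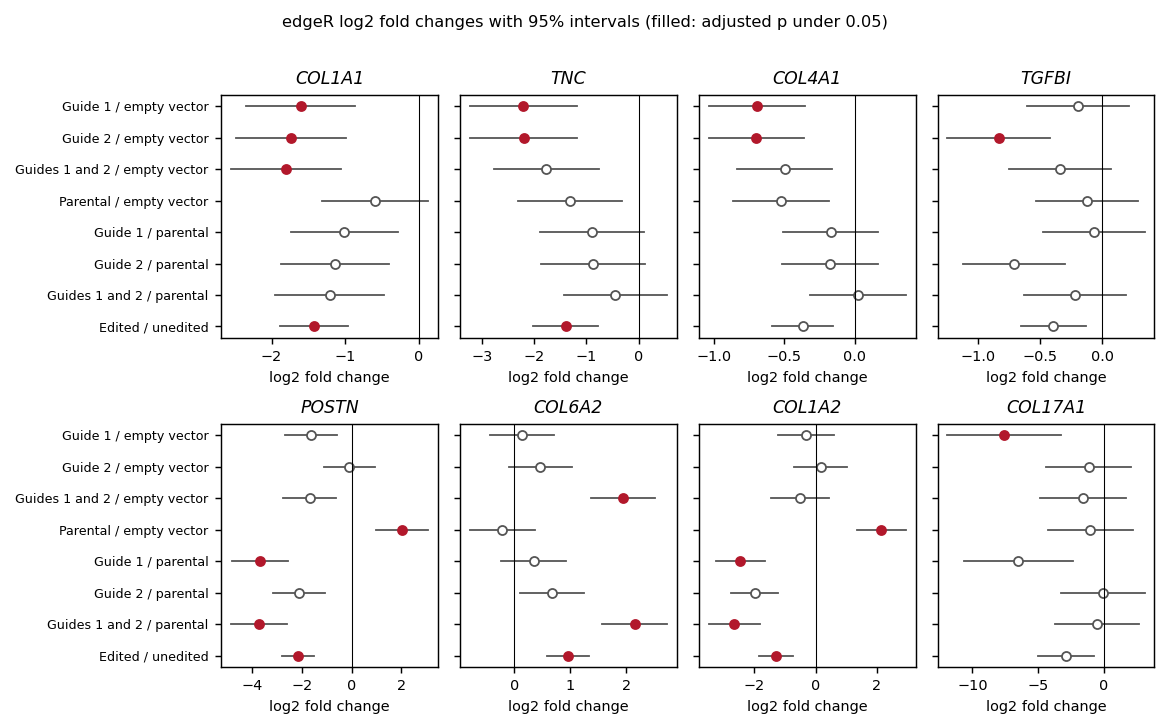
edgeR log2 fold changes of the 8 called genes with 95% intervals in 8 comparisons against a control, filled where the adjusted p is under 0.05. COL1A1 and TNC are below 0 against the empty vector, COL1A2 and POSTN are above 0 in parental against empty vector, and COL6A2 is above 0 in both-guide cells.

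Guide 2 replicate 2 differed from its mates in much of the matrix set. It was the lowest of the 15 libraries in 20 of the 34 tested genes, below both mates in 25 and above both in 7. These counts were not made over all genes, so they are not shown to be particular to the matrix set. Over all genes, 76.8% and 76.6% differed beyond sampling noise between this library and replicates 1 and 3. In the other replicate pairs 24.6% to 65.8% did. NID1, FBN1, COL18A1, FBLN1, FN1 and COL8A1 had 0.107 to 0.231 times the mean of its mates there, while VCAN had 2.06 times and COL17A1 340 times that mean. The 37 genes together took 1.03% of the counts of this library and 2.01% to 3.34% of those of the others.

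Leaving this library out raised the number of matrix genes called, as it did for all genes. Against the empty vector 5 were then higher and 7 lower in guide 1 cells, where 6.47% of all genes were higher and 11.7% lower. The numbers were 4 and 7 in guide 2 cells (5.04% and 9.42% of all genes) and 2 and 7 in both-guide cells (1.71% and 4.99%). In edited against unedited cells 4 were higher and 10 lower (6.63% and 11.4% of all genes). Those higher were COL6A1, COL6A2, COL6A3 and COL18A1, with log2 fold changes of 0.62, 1.03, 0.78 and 0.72. Those lower were COL17A1, POSTN, COL1A1, COL1A2, TNC, COL5A1, TGFBI, COL4A1, VCAN and COL4A2, from -5.18 (COL17A1) to -0.17 (COL4A2). Leaving out empty-vector replicate 3 instead left none of the matrix genes called in guide 1 or guide 2 cells against the empty vector by edgeR (1.39% and 0.948% of all genes). Unadjusted, 6 and 8 had an edgeR p under 0.05, as did 2430 and 2363 of all 17936 tested genes.

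Genes that make, modify or bind these proteins were read from 4 further lists. Of 15 receptors of collagen and fibronectin, all tested, 6 fell in guide 1, 4 in guide 2, 2 in both-guide and 2 in parental cells against the empty vector, where 4.57%, 2.73%, 0.693% and 2.84% of all genes fell. None rose, against 1.31%, 1.2%, 0.269% and 1.53% of all genes. Edited against unedited cells had 3 lower (1.19% of all genes). DDR1, a receptor tyrosine kinase that binds collagen, had 110, 117 and 179 CPM in empty-vector cells and 37.5 to 83.6 CPM in all others, and fell by 1.58, 1.22, 1.26 and 1.21 in guide 1, guide 2, both-guide and parental cells (edgeR adjusted p 0.00440, 0.0158, 0.0290 and 0.0164). ITGA1, the alpha1 integrin chain that pairs with beta1 to bind collagen, had 33.2 to 34.5 CPM in empty-vector, 24.3 to 29.9 CPM in parental and 15.9 to 24.0 CPM in edited cells, and edited cells were below both controls with -0.61 in edited against unedited (SE 0.0885, edgeR adjusted p 0.00812, called in all 15 fits without 1 library). The DDR1 call in guide 1 cells also held in all 15 fits, and those in guide 2, both-guide and parental cells in 12, 9 and 12. ITGA2 and ITGAV fell in guide 1 (-1.84 and -0.64) and guide 2 cells (-1.54 and -0.80) against the empty vector, ITGA2 also in parental cells (-1.62). The ITGA2 calls held in 15, 12 and 13 of 15 fits and those of ITGAV in 8 and 13, and the guide 1 call of ITGAV had an edgeR adjusted p of 0.0535 when blocked. None of the receptors was called by edgeR against parental cells in guide 1, guide 2 or both-guide cells. Of all genes 0.149%, 0.0516% and 0.195% were. Unadjusted, 3, 3 and 1 receptors had an edgeR p under 0.05, as did 3471, 1287 and 1742 of all 17457 tested genes. DESeq2 called 1, 0 and 0 receptors (3.76%, 0.785% and 2.1% of all genes) and voom 9, 11 and 3 (52.9%, 32.5% and 21.3%). Without guide 2 replicate 2 edgeR called 3, 4 and 0 (14.5%, 5.96% and 2.62% of all genes).

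Of 23 genes for collagen modification and folding, 22 were tested. Against the empty vector 2 rose and 3 fell in guide 1 cells, 1 rose and 3 fell in guide 2 cells, and 2 fell in parental cells. Of all genes 1.31%, 1.2% and 1.53% rose and 4.57%, 2.73% and 2.84% fell in these comparisons. None passed by edgeR in both-guide cells (0.962% of all genes did). Unadjusted, 6 had an edgeR p under 0.05, as did 2444 of all 17457 tested genes. DESeq2 called 2 (4.32% of all genes). PPIB, the cyclophilin B of the collagen prolyl 3-hydroxylation complex, had 485 to 497 CPM in empty-vector and 373 to 437 CPM in all other libraries, and fell by 0.32, 0.36 and 0.36 in guide 1, guide 2 and parental cells (edgeR adjusted p 0.00976, 0.00612 and 0.00796), each in all 15 fits without 1 library. P4HA2, a catalytic subunit of collagen prolyl 4-hydroxylase, fell by 0.50, 0.68 and 0.53 in the same cells (held in 6, 14 and 4 of 15 fits). When blocked, the guide 1 and parental calls of P4HA2 were lost (edgeR adjusted p 0.0601 and 0.0570). P4HB, the other subunit of the enzyme, fell by 0.38 in guide 2 cells. P3H3, a prolyl 3-hydroxylase family member, rose by 1.58 in guide 1 and 1.67 in guide 2 cells (edgeR adjusted p 0.0108 and 0.00953), from 3.79 to 5.27 CPM in empty-vector to 11.6 to 15.9 and 10.5 to 18.6 CPM, and the calls held in 13 and 14 of 15 fits.

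Of 24 other collagen chains, 11 were tested, and against the empty vector 2 fell in guide 1, 1 in guide 2 and 2 in parental cells (4.57%, 2.73% and 2.84% of all genes). COL2A1, a cartilage fibrillar collagen, had 0.368 to 0.616 CPM in empty-vector cells and at most 0.127 CPM elsewhere. Of 36 other matrix glycoproteins, 25 were tested, and 1 fell in guide 1 and in guide 2 cells (MFAP2, a microfibril protein, -3.50 and -3.49, at most 1.03 CPM), near the 4.57% and 2.73% of all genes, while 1 rose in parental cells against 1.53% of all genes (MATN3, a matrilin, 1.20, edgeR adjusted p 0.0453, held in 3 of 15 fits).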

How the data were processed

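Per the labels' protocols, RNA was extracted with RNeasy kits and poly(A) libraries were made with the KAPA mRNA HyperPrep kit. Per the submitters' processing notes, Trim Galore 0.6.0, STAR 2.7.8a and GRCh38 were used. The counting program, its annotation and its use of strand are not given in the sources used here, so reads of a gene and an antisense partner cannot be told apart. The deposited tables hold whole-number counts per Ensembl gene, which the authors left unscaled, and CPM values, which equalled each deposited count divided by its library total. Symbols, positions and exon lengths come from GENCODE release 29, with a record for 58503 of 60721 identifiers. 25347 identifiers had no count.

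Counts were fitted with edgeR 4.0.16 in R 4.3.3: TMM scaling, filterByExpr by genotype (17457 genes kept), a group-means model over all 15 libraries, the quasi-likelihood F-test, and Benjamini-Hochberg adjustment over all tested genes, with calls at an adjusted p under 0.05. SEs were obtained from the fold change and the F statistic. CPM values are given as mean ± SD (n = 3). Edited against unedited is the mean of 3 edited minus the mean of 2 unedited genotypes. On simulated counts for guide 1 against the empty vector, 69% of 200 genes changed 2-fold were called among 17167. The changed genes were not drawn from those at low counts. Every count was drawn independently, without an outlier library such as guide 2 replicate 2, so the 69% does not cover these cases. Genes given in full were called in 1 of 8 control comparisons at an average log2 CPM of at least 1, filled up to 12 by the ratio of genotype means; at most 4 were named for each other list. The members and lists were chosen with earlier results of these data known. Alternatives were RLE scaling, no filter, the replicate number as a block, DESeq2 1.42.0, the compared groups alone, limma 3.58.1 voom with sample quality weights, and leaving out each library. Replicate numbers were not treated as pairs in the reported fits, since no label states a shared day or batch. Same-numbered guide 1 and empty-vector libraries deviated together (correlations across genes 0.137, 0.186 and 0.280). Those of guide 2 and parental cells deviated in opposite directions (-0.583, -0.750 and -0.123). The mean over all 30 same-numbered pairs was -0.0497.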

Additional observations from a re-analysis of the deposited data

Results flagged for a closer look

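COL6A2, the alpha2 chain of collagen VI, differed between edited lines in a direct test. Cells with both guides were above guide 1 cells by 1.81 (log2, SE 0.260, edgeR adjusted p 0.0145) and above guide 2 cells by 1.47 (SE 0.257, 0.0493), with all 3 both-guide libraries above all 6 libraries made with 1 guide. The second value lies next to the threshold and was lost in 12 of 15 fits without 1 library, the first in 5.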

How the results depend on the processing

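The counts of called matrix genes kept within 1.5 times of the reported values under RLE scaling and without the filter. The NF1 differences from the empty vector kept their sign and stayed called in both. In the order guide 1, guide 2, both guides and parental against empty vector, then guide 1, guide 2 and both guides against parental, edited against unedited, guide 1 against guide 2, and both guides against guide 1 and guide 2, voom with sample weights called 20, 18, 19, 15, 25, 16, 15, 22, 9, 22 and 16 of 34, where it called 15.2% to 52.9% of all genes. DESeq2 called 4 (both guides against empty vector), 3 (guide 2 against parental) and 7 (both guides against parental). It called 9 (edited against unedited), 1 (guide 1 against guide 2) and 2 (both guides against guide 1). Of all genes it called 4.32%, 0.785%, 2.1%, 5.32%, 1.17% and 2.19% in these comparisons. In parental cells against the empty vector DESeq2 called 1 matrix gene higher and 2 lower (9.31% of all genes in either direction). There edgeR called 2 higher, COL1A2 and POSTN, and none lower. Fits of the compared groups alone called 11, 0 and 18 in the 3 edited lines against the empty vector (15.8%, 0.0794% and 18.7% of all genes). They called 6 in both guides against parental (0.904%), 10 in both guides against guide 1 (7.67%) and 0 against guide 2 (0.0123%). Edited against unedited uses all groups, so no such alternative was possible. With the replicate number as a block 1 (both guides against empty vector, 0.395% of all genes) and 1 (guide 1 against parental, 0.0516%) were called. With the same block 3 (edited against unedited, 0.636% of all genes) and 0 (both guides against guide 2, 0.0115%) were called. The mean correlation of -0.0497 over 30 same-numbered pairs averages values from -0.750 to 0.280. It therefore cannot decide whether replicate numbers mark pairs in single comparisons. Under the block, 7 of 24 called gene results missed the threshold. Among them were TGFBI in guide 2 (edgeR adjusted p 0.0509), COL1A1 in both guides (0.0838), and TNC and COL1A2 in edited against unedited cells (0.0740 and 0.0519). In the same order, leaving out 1 library gave 0 to 12, 0 to 11, 1 to 9, 1 to 6, 0 to 10, 0 to 10, 1 to 8, 2 to 14, 0 to 1, 0 to 7 and 0 to 6 calls, with the highest count of each range without guide 2 replicate 2. None of the 24 called gene results nor the 3 NF1 differences changed sign in the alternatives that gave them an adjusted p. DESeq2 gave one for 22 of the 24 gene results. Fits of the compared groups alone gave none for edited against unedited cells. The causes of the changes in calls were not tested. Over all genes, guide 1 against the empty vector gave 1026 calls, 1937 with DESeq2, 567 with the block, 2608 in the compared groups alone and 7424 with voom. At 0.038 to 0.065 CPM for 3 counts, values of COL1A2, COL5A1, NID1 and THBS2 rest on few reads.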
